A study of Mus musculus with 3 samples.

Results

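The cytochrome P450 genes are 132 mouse genes whose symbols start with Cyp and a number, of 49943 annotated genes, with 2 vitamin D hydroxylase genes left out by the rule. Of these, 97 are annotated as protein-coding, and the remaining 35 are pseudogenes or other non-coding entries. Their chromatin accessibility was taken from mtscATAC-seq of mouse kidney, an assay in which fixed, permeabilised cells keep their mitochondria and a transposase marks open DNA. All mice carried mutant trnE, the mitochondrial gene of the tRNA for glutamate, at a stated load, the share of mitochondrial genomes that are mutant. At 75 weeks of age, old replicate 1 had 75% load and old replicate 2 had 80% load. The young library was from kidney of 3 weeks of age at 80% load. Values for all 3 libraries are given in this order. No library without the mutation was analysed here, and the labels give neither sex nor strain. Whether the 2 old libraries are from different animals is not stated, and the spread behind each p-value may be technical. The young group has 1 library, so age, animal and library cannot be told apart.

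Cytochrome P450 enzymes are haem proteins that insert oxygen into their substrates, with electrons from Por in the endoplasmic reticulum or from ferredoxin in mitochondria. The Cyp1, Cyp2 and Cyp3 families clear drugs, toxins and steroids, the Cyp4 family hydroxylates fatty acids and leukotrienes, and other families make or break down sterols, bile acids, steroids and retinoids. In the kidney they are known mainly from the proximal tubule, where the Cyp2c and Cyp2j epoxygenases and the Cyp4a hydroxylases turn arachidonic acid into lipids that act on salt transport and vessel tone. Many mouse P450 genes lie in tandem arrays of near-identical copies, in which short reads can be assigned to the wrong copy or dropped. Accessibility shows open DNA at a gene and not its RNA or enzyme activity.

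The 3 libraries held 4302 to 5656 barcodes and 64729297 to 110871506 counts in peaks, with medians of 13338.5 to 23319.5 counts per barcode. After filtering, 3950 to 5315 cells remained per library, and 24 to 28 barcodes were shared by each pair of libraries. Proximal tubule-like cells, clusters named from markers that include no Cyp gene, numbered 257, 3509 and 3329. Old replicate 1 stood apart, since 61.8% of its cells were macrophage or dendritic cell-like. Its proximal tubule-like cells also had a summed early tubule marker level of 976 CPM, against 1338 and 1465, and an injury marker sum of 298 CPM against 198 and 188. The macrophage and dendritic cell markers summed to 272, 187 and 166 CPM in the same cells. These sums are over each library's own peaks. All 14 of these immune markers had counts in old replicate 1, while 3 were at 0 in old replicate 2 and 1 was at 0 in young cells. The part of these markers in the results was not tested. None of 4 Y-linked genes had a region in any library, and Xist stood at 24.3 to 31.2 CPM in the proximal tubule-like cells of the 3 libraries.

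Peaks were called by the authors on each library alone, so levels were compared over merged regions that held a peak in both libraries of a comparison. A region belonged to a gene if it overlapped the gene body or 2 kb on either side. Levels are in CPM, a gene's counts scaled to the total of the proximal tubule-like cells over all regions compared. Of the 132 genes, 107 had a region in some library, 80 had a region peaked in old replicate 2 as well as in young cells, and 42 reached 10 CPM in 1 of these 2. The other 38 with a shared region stayed under 10 CPM, 52 had no shared region, and 25 of those had none at all. Cyp2c38 and Cyp2c39 shared their regions and cannot be told apart.

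The largest difference lay in the Cyp2a cluster on chromosome 7, whose members Cyp2a4 and Cyp2a5 hydroxylate testosterone and coumarin. Their promoters are shown because the genes are close copies of each other. In the RefSeq sequence of GRCm38.p6, the build also called mm10, the 250 bases before each start were 97.6% identical over 251 aligned positions. Both sequences are written 5′ to 3′ on the plus strand, with capitals for bases that have no match in the other gene. Cyp2a4 is at chr7:26306942-26307191 and Cyp2a5 at chr7:26835089-26835338.
Cyp2a4: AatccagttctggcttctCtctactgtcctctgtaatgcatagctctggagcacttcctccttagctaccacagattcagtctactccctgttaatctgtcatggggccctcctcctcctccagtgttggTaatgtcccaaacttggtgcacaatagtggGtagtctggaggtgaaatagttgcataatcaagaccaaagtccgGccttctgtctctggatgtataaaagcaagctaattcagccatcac
Cyp2a5: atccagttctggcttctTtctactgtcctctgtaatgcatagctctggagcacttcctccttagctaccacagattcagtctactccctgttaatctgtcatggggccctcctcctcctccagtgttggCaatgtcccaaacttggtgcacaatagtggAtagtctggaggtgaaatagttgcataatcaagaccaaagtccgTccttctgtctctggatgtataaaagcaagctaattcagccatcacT
Each of these holds 5 bases without a match, 1 match to the C/EBP motif TTGCNNAA and 1 to the TATA box TATAAA. How reads were assigned between the 2 genes was not tested. The Cyp2a4 values below over regions shared between libraries come from 1 region inside the gene, outside the promoter shown. Values over each library's own peaks or over all merged regions also take in, in the old libraries, regions at and upstream of the start.

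In proximal tubule-like cells, 3 of the 42 genes were at least 2-fold higher in old replicate 2 than in the young library and 0 were at least 2-fold lower. Of the 3, Cyp2a4 and Cyp4f14 reached 10 CPM, the limit for the 42, only in old replicate 2, where they were higher. Over all genes at that level the shares were 0.8% higher and 0.188% lower. There is 1 library on each side, so this has no test, and the intervals below cover counting error only. The median log2 ratio of the 42 was 0.04, against -0.05 for all genes, and 24 of the 42 were above 0. The log2 ratio was within 0.5 of 0 for 32 of them. The smallest was -0.82 at Cyp4a30b and the largest 3.39 at Cyp2a4.

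**Figure D1:**
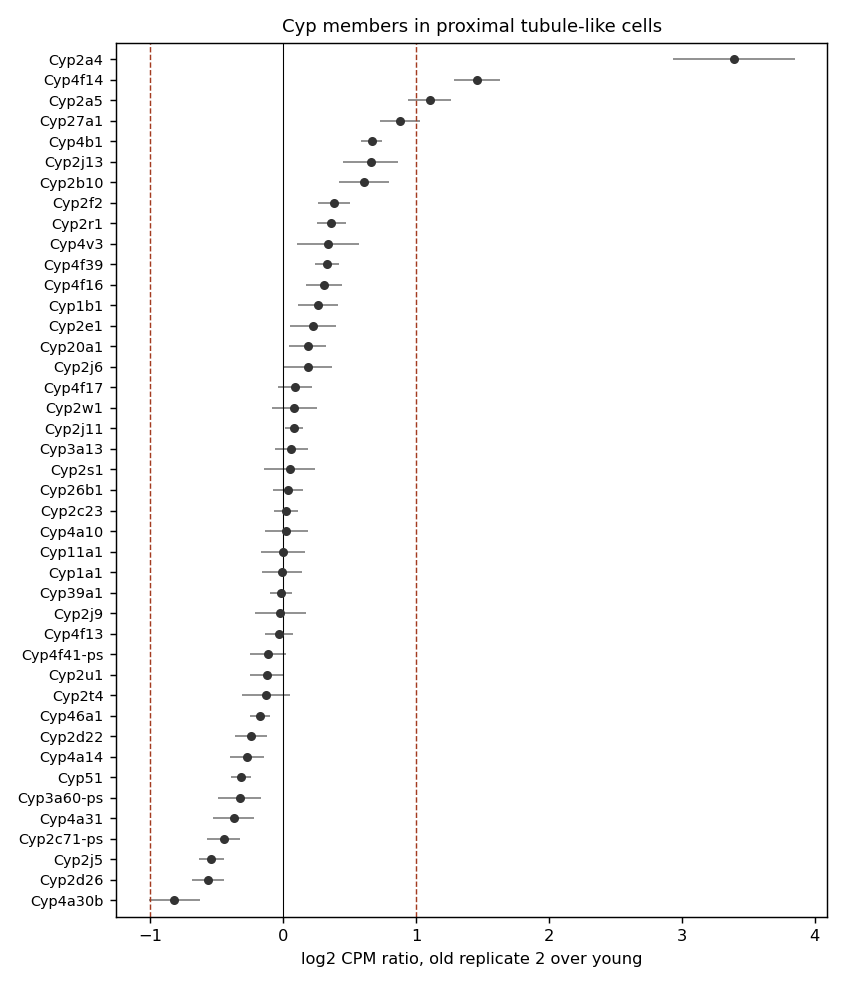
Log2 ratio of CPM in old replicate 2 over the young library (x axis) for the 42 P450 genes that reached 10 CPM in proximal tubule-like cells, 1 gene per row. Points are ratios, bars are 95% counting intervals and dashed lines mark 2-fold; Cyp2a4, Cyp4f14 and Cyp2a5 lie past the upper line and no gene lies past the lower one.

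Cyp2a4 (chr7:26307192-26315088), which had 1 shared region, was at 10.8 CPM in old replicate 2 (95% interval 9.60 to 12.1) and 1.03 CPM in the young library (0.767 to 1.38), which is a log2 ratio of 3.39 (2.93 to 3.85). Cyp4f14 (chr17:32903357-32917376), a hydroxylase of leukotrienes, was at 25.9 CPM (24.0 to 28.0) and 9.45 CPM (8.58 to 10.4), a log2 ratio of 1.46 (1.28 to 1.63). Cyp2a5 (chr7:26835339-26843264) was at 26.7 CPM (24.8 to 28.7) and 12.4 CPM (11.4 to 13.5), a log2 ratio of 1.10 (0.94 to 1.26). Of the 2 shared regions of Cyp2a5, 1 also lies at another annotated gene. Cyp2a5 was the gene nearest to the 2-fold limit from above, and the nearest from below was Cyp27a1, a mitochondrial sterol hydroxylase of bile acid synthesis, with a log2 ratio of 0.88 (0.72 to 1.03). Another 6 genes between 2 and 10 CPM were past 2-fold, all higher in old replicate 2: Cyp2c70, Cyp2b9, Cyp2b13, Cyp4f15, Cyp4a32 and Cyp2d9, with log2 ratios from 1.05 to 2.47. Cyp2b9 was at 7.08 and 1.39 CPM, and Cyp2c70 at 5.44 and 0.986 CPM. The share of all genes between 2 and 10 CPM that were past 2-fold is not given here, so these 6 have no background.

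By subfamily, the number and letter after Cyp, 26 of 38 subfamilies reached 10 CPM, each region being counted once. The Cyp2a sum was at 39.1 CPM in old replicate 2 against 14.2 CPM in young cells, a log2 ratio of 1.46 (1.32 to 1.60), and was the 1 subfamily past 2-fold. It was followed by Cyp27a at 0.88 (0.72 to 1.03), Cyp2b, a family of drug-induced enzymes, at 0.79 (0.67 to 0.92), and Cyp4b at 0.66 (0.59 to 0.74). The largest sums were those of Cyp4f and Cyp2j, over 24 and 17 regions. Sums are not scaled by region length, so they do not rank subfamilies by openness. Cyp4f was at 241.1 and 198.9 CPM, a log2 ratio of 0.28 (0.23 to 0.32). Cyp2j was at 204.5 and 212.0 CPM, a log2 ratio of -0.05 (-0.10 to -0.00446). Cyp2c, which holds the arachidonic acid epoxygenases, was at 122.3 and 119.4 CPM, with an interval of -0.03 to 0.10 around a log2 ratio of 0.03.

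The lowest ratios were those of Cyp51, the sterol demethylase of cholesterol synthesis, at -0.32 (-0.39 to -0.25), and Cyp4a and Cyp2d. Cyp4a was at 87.5 and 101.5 CPM, a log2 ratio of -0.21 (-0.29 to -0.14), and Cyp2d at 81.5 and 94.0 CPM, a log2 ratio of -0.21 (-0.28 to -0.13). No subfamily was 2-fold lower, and 16 of the 26 ratios were above 0.

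**Figure D2:**
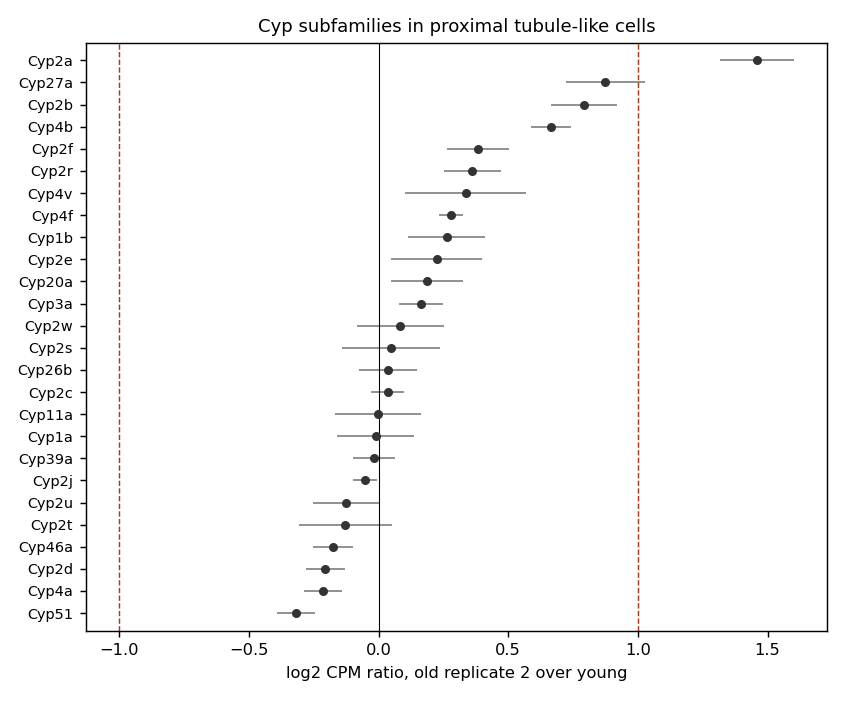
Log2 ratio of summed CPM in old replicate 2 over the young library (x axis) for the 26 P450 subfamilies that reached 10 CPM in proximal tubule-like cells. Points are ratios, bars are 95% counting intervals and dashed lines mark 2-fold; Cyp2a at 1.46 is past the line and Cyp51 at -0.32 is the lowest.

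Levels per kb of region, the scale on which genes can be set beside each other, were highest for Cyp2j5, a proximal tubule epoxygenase. It stood at 26.1 CPM per kb in old replicate 2 against 37.9 CPM per kb in young cells. Cyp2j11 followed at 23.1 and 21.9 CPM per kb, and Cyp2r1 at 24.3 and 18.9 CPM per kb. The other 7 of the 10 highest were Cyp4a31, Cyp2d22, Cyp3a60-ps, Cyp4b1, Cyp2d26, Cyp2c71-ps and Cyp46a1, with means of both libraries from 18.1 to 21.2 CPM per kb. Of the 10, Cyp4b1, a fatty acid hydroxylase, had the highest ratio, at 94.6 CPM in old replicate 2 against 59.6 CPM in young cells (log2 ratio 0.67, 0.59 to 0.74). Cyp2d26 was at 29.4 and 43.5 CPM (-0.57, -0.69 to -0.45), and Cyp2j5 at 45.6 and 66.4 CPM (-0.54, -0.64 to -0.44). These are differences between 2 libraries, with no test.

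Both old libraries were then compared with the young one over regions with a peak in all 3. The peaks of old replicate 1, mostly immune-like cells, therefore also limit which tubule regions and genes could be tested. Such regions held 82.1% of the counts of old replicate 2 and 82.7% of those of the young library. Regions peaked in these 2 libraries held 96.3% and 96.2%. The values are normalised CPM, scaled by edgeR's TMM factors. Adjusted p-values come from the two-sided quasi-likelihood test of edgeR, adjusted by Benjamini-Hochberg over all 25550 genes tested. Of all genes, 0.462% were higher and 0.172% lower in old cells. Of the 61 P450 genes tested, 1 was higher and 0 were lower. An unadjusted p under 0.05 was found for 12 of the 61, against 4.83% of all genes. Their median log2 difference was 0.07, against 0.00482 for all genes.

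Cyp2a4 was at 7.50, 11.3 and 1.06 normalised CPM. Both old values lay above the young one (log2 difference 3.17, SE 0.62, adjusted p = 0.000939). The Cyp2a4 call was lost over all merged regions, where a missing peak counts 0 (adjusted p = 0.694), and with at least 3000 counts per barcode (adjusted p = 0.0621), and over all alternatives with a test its adjusted p was 0.000125 to 0.694. Cyp2a5 was at 23.4, 27.9 and 12.8 normalised CPM, and both old libraries were above the young one (log2 difference 1.01, SE 0.31, adjusted p = 0.142). For Cyp4f14 the values were 13.2, 27.1 and 9.73, with old replicate 1 much nearer to the young library (1.10, SE 0.36, adjusted p = 0.221). Without old replicate 2 the Cyp4f14 difference was 0.43, a value with no test. Cyp2b9 was at 4.75, 7.40 and 1.43, without overlap of the groups (2.12, SE 0.67, adjusted p = 0.190).

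No P450 gene that was tested passed with lower values in old cells. Cyp4a30b, which had the lowest ratio of old replicate 2 over young, had no region peaked in all 3 libraries and was not tested. Cyp2c70 and Cyp2d9, named above as past 2-fold, were also not among the tested genes. Cyp2c71-ps, a pseudogene, was at 12.2, 28.7 and 39.0 normalised CPM (log2 difference -0.85, SE 0.27, adjusted p = 0.178). Cyp2j5 was at 44.4, 47.7 and 68.4, both old libraries being below the young one (-0.56, SE 0.20, adjusted p = 0.393). Cyp2d26, at 25.1, 27.2 and 40.6, had the same order (-0.63, SE 0.24, adjusted p = 0.494). Cyp27a1 was at 15.9, 28.9 and 15.5, so that old replicate 2 stood far above both other libraries, and its difference without old replicate 2 was 0.04.

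Single regions were tested in the same way over all 72316 regions with a peak in every library, an analysis added after the gene results had been seen. Of all regions, 0.755% were higher and 0.0664% lower in old cells. Of the 113 regions at P450 genes, 5 were higher and 0 lower. An unadjusted p under 0.05 was found for 14 of the 113, against 5.79% of all regions. The 5 were at Cyp2a4, Cyp2a5, Cyp2j11, Cyp4b1 and Cyp4f14, and only 2 of them covered a gene start. All 5 calls were lost with at least 3000 counts per barcode. The Cyp4f14 call was also lost in every other alternative with a test except the one without a filter on low counts, and the Cyp2a5 call with RLE scaling, with DESeq2, without doublet removal and without cluster 16. The Cyp4b1 call was lost without doublet removal and in the shared clusters described below, and the Cyp2j11 call in the shared clusters.

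The start of Cyp4b1, at chr4:115647308-115648244, was at 27.4, 33.3 and 9.60 normalised CPM. Both old libraries were above the young one (log2 difference 1.67, SE 0.37, adjusted p = 0.00299). The other 2 tested regions of Cyp4b1, centred 2153 and 4241 bp into the gene, had log2 differences of -0.19 and 0.42, so that the gene as a whole reached 0.49 (adjusted p = 0.575). Over 1 kb on each side of the gene start alone, 0.327% of all genes were higher, and Cyp4b1 was the 1 P450 gene called, with a log2 difference of 1.72 (adjusted p = 0.000101).

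The start of Cyp4f14, at chr17:32916879-32917891, was at 8.27, 16.6 and 4.24 normalised CPM (log2 difference 1.60, SE 0.44, adjusted p = 0.0431). Old replicate 2 was about as far above old replicate 1 as that library was above the young one. Without old replicate 2 the log2 difference was 0.96.

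The promoters of Cyp4b1 and Cyp4f14 are shown because the called regions lie on them. They are the 250 bases before the most upstream start among the RefSeq promoters used here, 5′ to 3′ on the minus strand of GRCm38.p6. Motif matches are in capitals. The last bases of the Cyp4f14 sequence lie inside the annotated gene as given above. Cyp4b1 is at chr4:115647722-115647971 and Cyp4f14 at chr17:32917357-32917606.
Cyp4b1: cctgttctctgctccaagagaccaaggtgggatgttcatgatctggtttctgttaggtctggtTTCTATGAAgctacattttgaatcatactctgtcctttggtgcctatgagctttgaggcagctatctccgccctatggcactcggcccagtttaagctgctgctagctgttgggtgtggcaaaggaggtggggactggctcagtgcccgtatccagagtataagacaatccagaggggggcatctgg
Cyp4f14: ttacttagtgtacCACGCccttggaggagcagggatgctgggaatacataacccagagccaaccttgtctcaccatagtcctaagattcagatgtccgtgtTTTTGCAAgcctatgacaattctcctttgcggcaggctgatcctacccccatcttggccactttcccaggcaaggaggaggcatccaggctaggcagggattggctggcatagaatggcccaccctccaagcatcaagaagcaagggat
The match in Cyp4b1 is to the STAT motif TTCNNNGAA. Those in Cyp4f14 are to the xenobiotic response element GCGTG and to the C/EBP motif, both on the strand opposite to the one printed.

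Regions away from gene starts gave the other 3 calls. In Cyp2j11, a member of the epoxygenase subfamily, the region chr4:96324807-96325760 lies inside the gene body, centred 23397 bp from its start. It was at 15.9, 17.5 and 2.81 normalised CPM (log2 difference 2.58, SE 0.45, adjusted p = 1.729e-05). The region of the Cyp2j11 start was at 26.3, 25.2 and 22.3 (0.21, adjusted p = 1), and the strongest region of the gene, 17697 bp in, was at 75.8, 60.5 and 78.8. The log2 difference of the whole gene between old replicate 2 and the young library was 0.08 (0.01 to 0.15).

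The Cyp2a4 region behind the gene result was chr7:26311431-26312424, inside the gene body and centred 4735 bp from its start. It was at 8.92, 12.2 and 1.21 normalised CPM (log2 difference 3.14, SE 0.55, adjusted p = 2.382e-05). At Cyp2a5 the called region was chr7:26832480-26833403, centred 2398 bp upstream, at 9.79, 7.71 and 2.04 (2.08, SE 0.56, adjusted p = 0.0325). The Cyp2a5 start region, chr7:26834786-26835710, was at 18.1, 22.3 and 12.6 (0.69, SE 0.37, adjusted p = 0.927). Both old libraries were above the young one in all 3 of these regions.

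**Figure D3:**
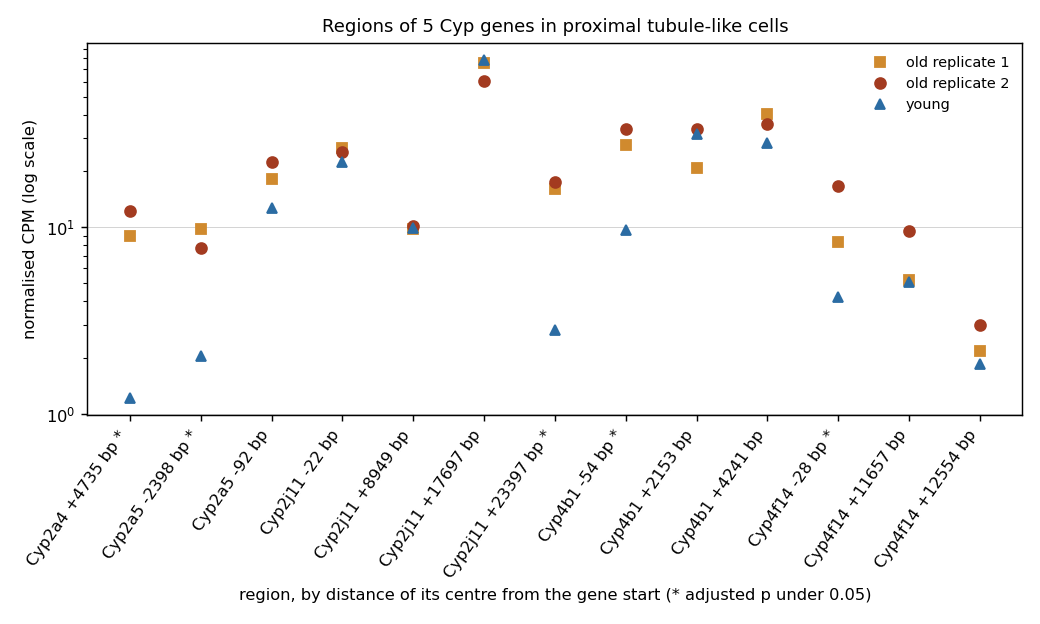
Normalised CPM on a log axis (y) of the regions of Cyp2a4, Cyp2a5, Cyp2j11, Cyp4b1 and Cyp4f14 with a peak in all 3 libraries, ordered by gene and by the distance of the region's centre from the gene start (x). Each point is 1 library and an asterisk marks adjusted p under 0.05; at Cyp2j11 +23397 bp the old libraries stand at 15.9 and 17.5 and the young one at 2.81, while its 3 other regions have log2 differences between -0.22 and 0.21.

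Over regions peaked in old replicate 2 as well as in young cells, 147 at P450 genes reached 2 CPM in 1 of them. Of these 22 were at least 2-fold higher in old replicate 2 and 1 was lower, against 6.04% and 0.725% of 93887 such regions overall. The 1 lower region was 1638 bp upstream of Cyp4a30b, at 5.03 and 11.4 CPM (log2 ratio -1.18, -1.46 to -0.90). The higher ones included a region at Cyp4b1 11871 bp into the gene, at 3.83 and 0.726 CPM (2.40, 1.81 to 2.98), and the single shared region of Cyp2b9, 27905 bp from its start.

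Proximal tubule-like cells fell into 11 clusters, with young cells in the majority in 4 and cells of old replicate 2 in the other 7. Clusters 1, 5 and 8 held 1307, 717 and 709 young cells and 0, 4 and 2 cells of old replicate 2. Clusters 3 and 6 held 1184 and 709 cells of old replicate 2 and 0 young cells. Ratios over the whole class therefore compare cells that fell largely into separate clusters. In 4 clusters, numbered 9, 13, 14 and 17, all libraries had at least 10 cells, and they held 114, 932 and 590 cells. The cluster levels of single genes rest on few counts where cells are few, and the spread between clusters has no test.

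Cyp2a4 was between 0 and 1.89 CPM in every cluster of the young library and between 3.49 and 49.0 CPM in every cluster of old replicate 2. Its highest level was in cluster 9, at 49.0 CPM from 21 counts in old replicate 2 against 1.89 CPM from 9 counts in young cells. Cells of cluster 9 were shallow, with a median of 0.307 of the median counts of their library. The 44 cells of old replicate 1 in that cluster had 0 counts at Cyp2a4 and 4 at Cyp2a5. They held 91898 counts in all over the regions compared, too few for the 0 to give a level. In cluster 13, which had the highest late tubule marker sum of the proximal tubule-like clusters, 770.6 CPM, Cyp2a4 was at 15.7 CPM in old replicate 2 against 1.10 CPM in young cells. Cyp2a5 did not show the same gap there, with 29.7 CPM in old replicate 2, 27.5 CPM in young cells and 15.9 CPM in old replicate 1. In cluster 9 Cyp2a5 was at 43.5 CPM in old replicate 1, from 4 counts, 42.0 CPM in old replicate 2 and 8.62 CPM in the young library. The log2 ratio of Cyp2a5 between old replicate 2 and the young library was 0.11 within cluster 13 alone, where Cyp2a4 was at 3.84 and Cyp4f14 at 2.11.

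Cyp4b1 was higher in old replicate 2 than in the young library in each of the 4 shared clusters, for example at 119.3 and 42.1 CPM in cluster 14. Cyp2j5 was lower in old replicate 2 in 3 of these 4 and higher in cluster 17, at 23.1 against 16.5 CPM. When the test was limited to the shared clusters, where 0.28% of all genes were higher and 0.367% lower, Cyp2a4 was higher (log2 difference 3.01, adjusted p = 0.0151) and Cyp2c71-ps became the 1 lower gene (-1.45, adjusted p = 0.00484). Cluster 16 held 109 of the 257 cells of old replicate 1, with 180 cells of old replicate 2 and 3 young cells, and had injury marker sums of 301 and 281 CPM in the old libraries. Without it 0.153% of all genes were higher, and Cyp2a4 was again the 1 P450 gene called (adjusted p = 0.00326, edgeR).

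**Figure D4:**
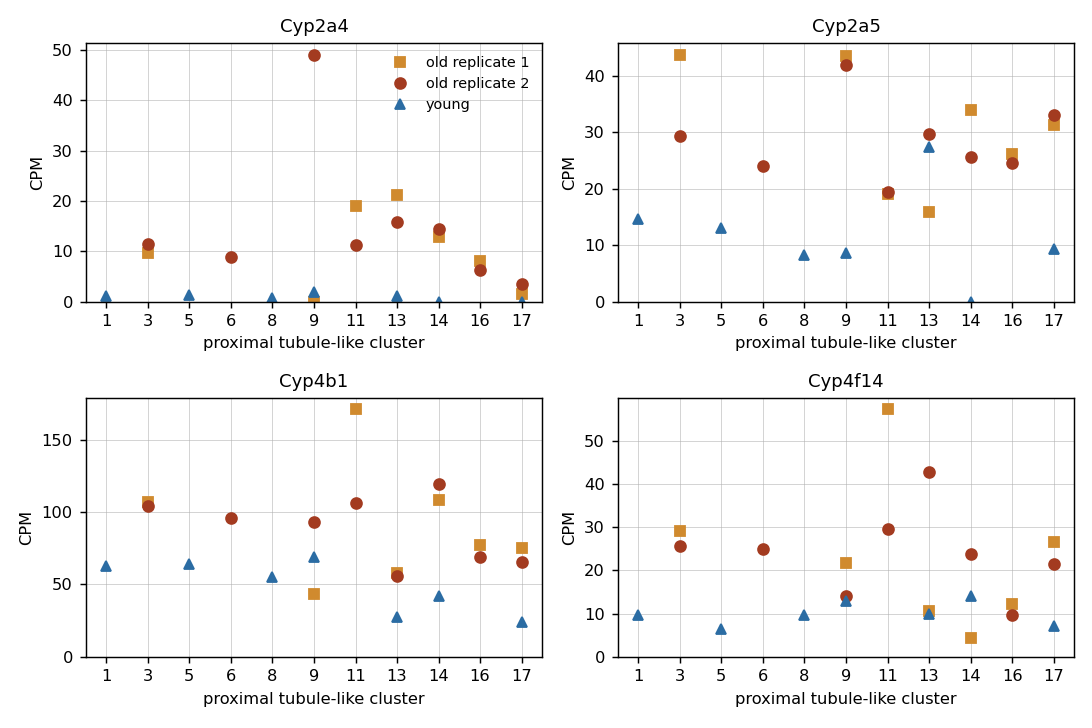
CPM of Cyp2a4, Cyp2a5, Cyp4b1 and Cyp4f14 (y axis) in each proximal tubule-like cluster (x axis, cluster number), with 1 point per library that has at least 10 cells in the cluster. Cyp2a4 stays at or under 1.89 CPM in all young clusters and reaches 49.0 CPM in cluster 9 of old replicate 2, a cluster of low depth.

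In loop to collecting duct-like cells, with 50, 323 and 203 cells, no P450 gene passed the test of old against young. Of 22854 genes, 0.0788% were higher and 0.0919% lower in old cells, and of 42 P450 genes tested 0 were called by edgeR or by DESeq2. The 1 with an unadjusted p under 0.05 was Cyp2j11, at 42.5, 69.6 and 104.4 normalised CPM (log2 difference -0.82, SE 0.28, adjusted p = 0.476). Its gene start alone went the other way, at 1.52 (adjusted p = 0.999).

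Across cell classes, levels were compared over each library's own peaks, in classes with at least 50 cells. Classes come from clustering, so differences between them are a description. The CPM summed over all P450 regions was highest in proximal tubule-like cells, at 1467, 1631 and 1465 CPM. It was 1071 to 1206 CPM in loop to collecting duct-like cells, 1064 and 1246 CPM in endothelium-like cells, 679 to 917 CPM in lymphoid, macrophage and dendritic cell-like classes, and 574 CPM in neutrophil-like cells.

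Cyp2j5 was at 44.1 to 66.5 CPM in proximal tubule-like cells, 4.40 to 16.2 CPM in loop to collecting duct-like cells and at most 3.44 CPM in the other classes. Cyp2a5 was at 12.0 to 27.9 CPM in proximal tubule-like cells and at most 1.68 CPM in the other classes. Cyp2a4 was at 22.3, 25.4 and 0.996 CPM in proximal tubule-like cells, and at most 5.32 CPM in the other classes. These sums cover different peaks, since both old libraries had a peak at the Cyp2a4 start and the young library had none. Over the region peaked in all 3 libraries, Cyp2a4 was at 7.50, 11.3 and 1.06 normalised CPM in proximal tubule-like cells. Cyp4b1 was shared with endothelium-like cells, at 63.9 CPM in old replicate 1 and 83.2 CPM in old replicate 2, against 57.7 to 91.3 CPM in proximal tubule-like cells.

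Cyp4f18, a leukotriene hydroxylase of white blood cells, had the opposite distribution. It reached 189.7 CPM (162.8 to 219.7) in neutrophil-like cells of old replicate 1, against 7.82 CPM in proximal tubule-like cells of that library. In macrophage or dendritic cell-like cells Cyp4f18 was at 74.2 CPM in old replicate 1 and 80.8 CPM in the young library, and in B or plasma cell-like cells at 40.2 and 51.6 CPM. In T or NK cell-like cells Cyp4f18 was near the tubule level, at 7.63 and 8.04 CPM. Cyp4f13, of the same subfamily, was highest in T or NK cell-like cells, at 97.0 and 120.6 CPM, and at 41.0 to 41.8 CPM in proximal tubule-like cells.

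Other genes were at least 2-fold above proximal tubule-like cells of the same library in 1 or more classes. Cyp2s1, an enzyme of eicosanoid and retinoid oxidation, was at 31.1 to 36.3 CPM in loop to collecting duct-like cells of the 3 libraries and 58.3 CPM (33.8 to 99.5) in the 74 T or NK cell-like cells of the young library. In that class of old replicate 1 Cyp2s1 was at 9.72 CPM. The remaining leading genes of loop to collecting duct-like cells were Cyp2j9 in old replicate 1 (28.6 CPM), Cyp2d67-ps in old replicate 2 (27.4 CPM) and Cyp2j6 in the young library (31.2 CPM).

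In endothelium-like cells Cyp2t4 was at 91.3 CPM in old replicate 2 and 66.3 CPM in old replicate 1, where Cyp2d22 at 93.0 CPM and Cyp20a1 at 87.2 CPM were the leading genes. Cyp4f13 was at 86.7 CPM in endothelium-like cells of old replicate 2. Cyp4f16 was at 54.2 CPM in macrophage or dendritic cell-like cells of old replicate 1, and Cyp4f13 at 90.8 CPM in those of the young library. Cyp26a1, a retinoic acid hydroxylase, was at 13.8 CPM (7.38 to 23.7) in neutrophil-like cells. In B or plasma cell-like cells Cyp2r1 led in the young library at 87.8 CPM, and Cyp4v3 was second in old replicate 1 at 27.7 CPM. Cyp4v3 was also second in T or NK cell-like cells of old replicate 1, at 24.3 CPM.

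**Figure D5:**
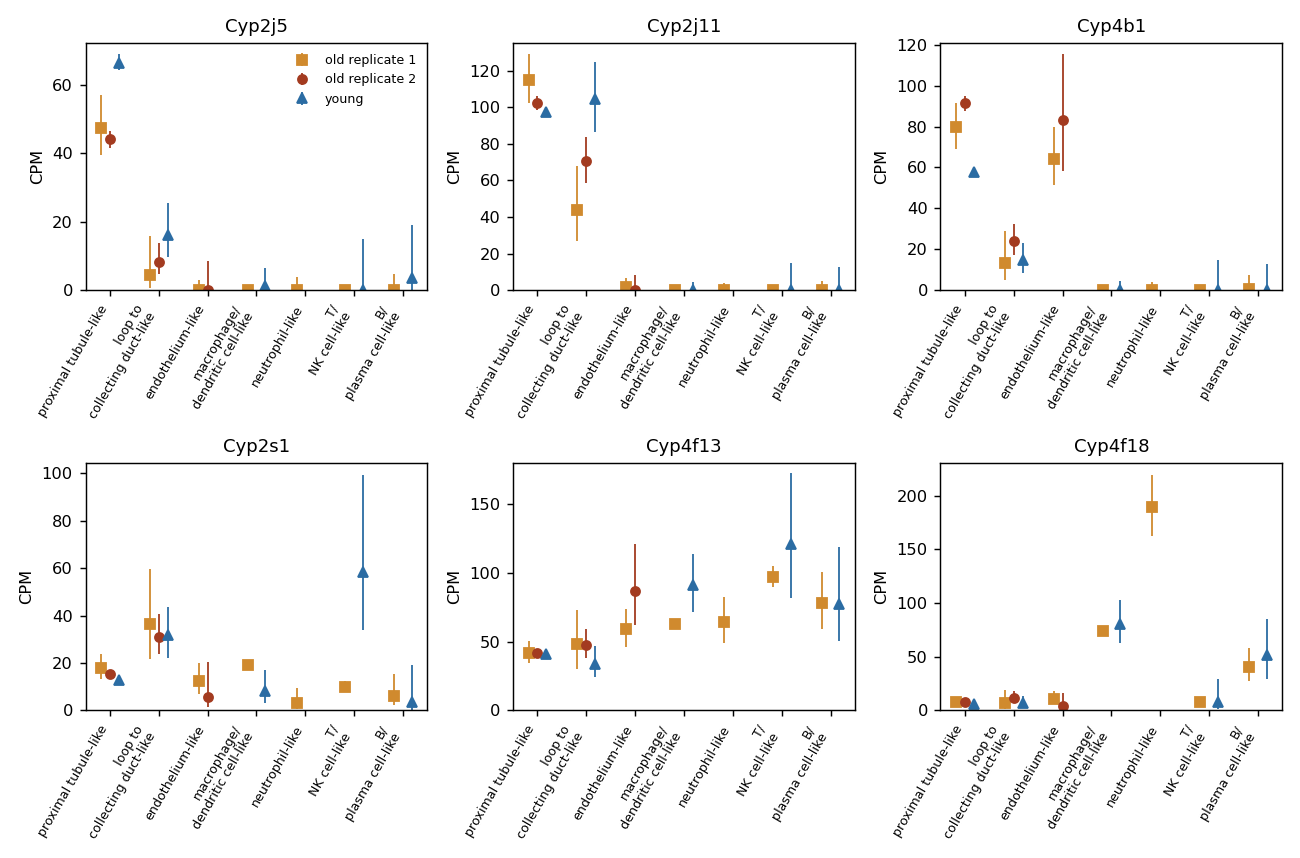
CPM over each library's own peaks (y axis) of 6 P450 genes in each cell class with at least 50 cells (x axis), with 1 point per library and 95% counting intervals. Cyp2j5 and Cyp2j11 stand in the tubule classes and at most at 3.44 CPM in the other classes shown, Cyp4b1 is shared with endothelium-like cells, and Cyp4f18 is highest in neutrophil-like cells at 189.7 CPM.

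Sequence before the gene start was searched on both strands for 7 motifs, in 87 RefSeq promoters of 77 P450 genes and in all 32851 promoters, each cut to the 250 bases before the start. The HNF4A motif CAAAGTCCA was in 12.6% of P450 promoters against 0.384% of all promoters, all 11 of them in Cyp2c and Cyp3a genes and Cyp8b1. The FOXA motif TGTTTAC was in 11.5% against 3.17%, and the TATA box in 34.5% against 12.4%. The C/EBP motif was in 23.0% against 9.56%, with Cyp2a4, Cyp2a5, Cyp2b9, Cyp2b10, Cyp2b13 and Cyp4f14 among the 16 genes that held it. The HNF1 motif was in 3.45% against 0.371%, at Cyp4a30b, Cyp4a32 and Cyp4f40. The STAT motif was in 5.75% against 7.02%, and the xenobiotic response element in 19.5% against 28.2%. Tandem copies share their promoter sequence, so these genes are not independent, and a match is a description of sequence only.

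Genes that work with the P450 enzymes were set out in 4 lists, and 2 of these genes passed the test in proximal tubule-like cells. Of 19 partners and haem synthesis genes, 0 passed the test in either direction and 0 were 2-fold apart, with Por, the electron donor, at 236.6, 246.5 and 263.0 normalised CPM (log2 difference -0.12, SE 0.19). None of the 19 had an unadjusted p under 0.05. Of 34 regulators, 1 was higher and 0 lower: Rxrg, a retinoid X receptor, was at 30.4, 42.3 and 16.2 normalised CPM (1.19, SE 0.27, adjusted p = 0.00698). Of 29 phase II and other drug-metabolising genes tested, 1 was higher and 0 lower. This was Aldh1a1, which oxidises retinal, at 53.0, 45.1 and 23.5 normalised CPM (1.05, SE 0.24, adjusted p = 0.0075).

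In that list Akr1c21, a steroid reductase, and Ugt3a1, a sugar-transferring enzyme, were 2.20-fold and 2.07-fold higher in old replicate 2 than in the young library, without passing the test (adjusted p = 0.570 and 0.319). Akr1c21 was at 6.22, 13.6 and 4.29 normalised CPM, so that old replicate 1 was nearer to the young library than to old replicate 2. Of 15 tested genes of other arachidonic acid enzymes and receptors, 0 were called and 0 had an unadjusted p under 0.05. The medians of the 4 lists lay between -0.08 and 0.02 on the log2 scale. Among segment markers in the same cells, 1 of 8 late genes was higher (Slco1a6, an organic anion transporter, at 1.37, adjusted p = 0.00579), 0 of 7 early genes and 0 of 9 injury genes were called, and their medians were 0.12, -0.22 and 0.34.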

How the data were processed

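The deposited counts per barcode and peak, 1 matrix per library, are the authors' Cell Ranger ATAC 2.1.0 output on mm10, per the submitters' processing notes. From 89.5% to 94.3% of values are even, so intervals treat 2 counts as 1 fragment and cover counting error only. Overlapping peaks of the 3 libraries were merged into 250005 regions. Barcodes with at least 1000 counts were kept, and 133 to 248 likely doublets per library were removed by simulated neighbours. Cells were clustered by Leiden (leidenalg 0.10.2, resolution 1, seed 7) on 30 latent components of 70167 regions, without regions near any Cyp gene. Clusters were named from fixed markers, but the scoring rule was set after the clusters had been seen. At 1 CPM the proximal tubule-like cells hold 4.75, 53.3 and 92.3 counts in the 3 libraries, in the report's order, so old replicate 1 is the least precise.

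With 1 young library, old replicate 2 against young has no test, and 2-fold at 10 CPM is the limit. Old against young was tested with edgeR 4.0.16 (TMM, filterByExpr, quasi-likelihood, Benjamini-Hochberg) on counts summed per library and class over regions with a peak in all 3 libraries; DESeq2 1.42.0 was an alternative. On simulated data with 200 genes changed 4-fold, 98% were recovered among 25550 proximal tubule-like genes and 86% among 22218 loop to collecting duct-like genes. Of 200 changed regions among 72315, 26% were recovered. False calls numbered 10, 6 and 6 in these 3 simulations. They gave every gene or region the same dispersion and changed only those above a low-count limit. Recovery at low levels was not measured. Promoters are RefSeq's for GRCm38.p6.

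Named are genes past 2-fold at 10 CPM, the 10 highest per kb, those called by edgeR, for each other class and library the 2 with the highest CPM among those 2-fold above proximal tubule-like cells, and genes of the partner, regulator, drug-metabolising and arachidonic acid lists past either limit. Genes under 10 CPM, genes near the limit, subfamily values, single regions and further genes with their test values were chosen after their values were seen. The members and lists were chosen with earlier results of these data known.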

Additional observations from a re-analysis of the deposited data

Results flagged for a closer look

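For 8 genes both old libraries lay on one side of the young library in proximal tubule-like cells and on the other side in loop to collecting duct-like cells, in normalised CPM. These were taken from P450 genes that reached 10 normalised CPM in some library in each of the 2 classes. The share of all genes with such a pattern is not given here, so the count of 8 has no background. The difference between the 2 cell classes was not tested, and the loop to collecting duct-like cells of old replicate 1 numbered 50. The values below are the log2 difference of old over young in proximal tubule-like cells minus that in loop to collecting duct-like cells. It was 0.92 for Cyp2j11, which was at 107.3, 105.4 and 99.4 normalised CPM in proximal tubule-like cells, in the order of old replicate 1, old replicate 2 and young, and at 42.5, 69.6 and 104.4 in the other class. It was -1.09 for Cyp3a13, at 7.86, 17.5 and 19.0 in proximal tubule-like cells and 14.9, 15.97 and 10.4 in the other class. Cyp2r1 had 0.71, Cyp2j6 0.34 and Cyp39a1 0.13. Cyp51 had -0.55, Cyp4f13 -0.51 and Cyp2u1 -0.45.

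In 3 regions both old libraries had a peak with at least 2 CPM in proximal tubule-like cells, and the young library had no peak. A level in the young library is therefore not in the tables, and the report's comparisons do not use these regions. In old replicate 2, over its own peaks, the Cyp2a4 start at chr7:26306656-26307580 was at 6.58 CPM. A region 2373 bp upstream of Cyp2a4, starting at 26304359, was at 4.29 CPM, and one 1278 bp upstream of Cyp26a1, starting at 37696088 on chromosome 19, was at 3.95 CPM. Of 322 regions at P450 genes, 12 (3.73%) had a peak in both old libraries and none in the young one, against 2.44% of all merged regions.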

How the results depend on the processing

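No paired analysis was possible because the young group has 1 library and its label carries no replicate number. Of 42 genes, 3 were 2-fold higher in old replicate 2 and 0 were lower; this became 9 higher at a minimum of 2 CPM, 2 higher in young in the shared clusters (Cyp2j9 at -1.20 and Cyp4a30b at -1.06), and 7 and 6 in cluster 13 alone, which was added after seeing the data. The share of all genes past 2-fold in these alternatives is not given here, so the counts have no background. Subfamilies past 2-fold, 1 and 0, became 2 higher over regions in all 3 libraries and 4 and 2 in cluster 13. Over these settings the log2 ratio was 3.15 to 4.68 for Cyp2a4, 0.11 to 1.24 for Cyp2a5, 1.26 to 2.11 for Cyp4f14 and 0.58 to 2.05 for the Cyp2a subfamily.

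Proximal tubule-like genes called higher and lower, 118 and 44, became 61 and 12 by DESeq2, 46 and 29 at gene starts, 35 and 14 at 3000 counts per barcode, 71 and 93 in the shared clusters, 39 and 26 without cluster 16, and 0 and 0 over all merged regions, where 476 genes had an unadjusted p under 0.05. P450 genes called, 1, became 2 in the shared clusters and 0 in 2 settings, where Cyp2a4 had log2 differences of 4.54 (all merged regions, adjusted p = 0.694, edgeR) and 3.53 (at least 3000 counts, adjusted p = 0.0621, edgeR, with 76 cells left in old replicate 1). In loop to collecting duct-like cells the 18 and 21 genes became 1 and 0 by DESeq2, 1 and 0 over all merged regions and 9 and 9 at 3000 counts. Cyp2j11 there turned to 1.52 at the gene start.

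Regions called higher and lower, 546 and 48, with 5 at P450 genes, became 280, 19 and 3 with RLE scaling, 186, 9 and 3 by DESeq2, 138, 19 and 3 without cluster 16, 90, 5 and 2 without doublet removal, and 10, 1 and 0 at 3000 counts. In the shared clusters 87 regions were higher, with 2 at P450 genes. The 3 kept were those of Cyp2a4, Cyp2j11 and Cyp4b1, the 2 without doublet removal those of Cyp2a4 and Cyp2j11, and the 2 in the shared clusters those of Cyp2a4 and Cyp2a5. The cause of these changes was not tested. Without old replicate 1 and without old replicate 2, values with no test, the log2 differences were 3.38 and 2.77 for Cyp2a4, 1.48 and 0.43 for Cyp4f14, 0.90 and 0.04 for Cyp27a1, 0.65 and 0.30 for Cyp4b1, -0.44 and -1.67 for Cyp2c71-ps, and -0.58 and -1.28 for Cyp2j11 in loop to collecting duct-like cells.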
